A study of Mus musculus with 2 samples.

Results

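The genes Zfp1 to Zfp499 encode mouse zinc finger proteins, and their RNA was compared between macrophages residing in the peritoneal cavity and macrophages elicited there by thioglycollate. Members were the genes with a current symbol from Zfp1 to Zfp499, with or without letters after the number, that a probe set names alone. The arrays held 299 such probe sets for 154 genes, of 18193 named genes in all. One array held RNA from resident macrophages of untreated C57BL/6J mice aged 8 weeks. The other held RNA from macrophages of C57BL/6J mice of the same age, taken 3 days after each mouse was given 1 mL of 3% thioglycollate into the peritoneal cavity. The labels name no genetic change in either group, and both cell preparations were allowed to adhere for 2 h and washed. Because the design text mentions culture overnight, how long the cells were cultured is not settled, and the number of mice behind each array is not stated. With 1 array per group no difference could be tested, and every value below describes these 2 arrays.

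Most proteins of this group carry tandem fingers of the C2H2 type, in which a pair of cysteines and a pair of histidines hold a zinc ion and the helix beside them reads DNA. Many also carry a KRAB box, which recruits the corepressor TRIM28 and with it histone methylation and silent chromatin, and these proteins are best known for silencing transposable elements and imprinted loci. A few members differ. Zfp36 encodes tristetraprolin, a CCCH finger protein that binds AU-rich elements of cytokine messengers and speeds their decay in activated macrophages.

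Values are MAS5 signals, linear brightness summaries of 1 probe set each. A signal counted as above background when it exceeded a floor of 82.2, the 95th percentile of gene families not thought to be active in macrophages. Lower signals were raised to that floor before a ratio was taken, so a ratio with 1 array at the floor is a bound. Each gene was read from its probe set of highest mean log2 signal, and in counts of genes "lower" or "higher" means at least 2-fold so on the elicited array. Of a single gene or probe set the fold or both signals are given, resident first. All 8 macrophage markers, among them the growth factor receptor gene Csf1r (36845 and 32074), were above the floor on both arrays. They were not all level. Itgam was 2.99-fold lower (9059 and 3027) and Cd14 2.73-fold lower, Fcgr1 was 2.55-fold higher (1344 and 3430), and the rest stayed within 2-fold. Markers of other cell types differed between the arrays. The summed signal of 12 B cell markers was 26542 in resident and 5046 in elicited cells, and 12 and 7 of them exceeded the floor. Cd22 made up most of the elicited sum and was 1.80-fold higher, and the other 11 summed to 24272 and 968. The summed signal of 13 mesothelial and fibroblast markers was 807 and 16597, with 4 and 11 above the floor. In such bulk samples, fewer cells of a type and less RNA per cell cannot be told apart. Mast cell markers summed to 2654 and 148 and dendritic cell markers to 1368 and 277. T cell markers summed to 943 and 588, but Cd28 (112 and 321) and Cd8a (138 and 159) went up while the other 5 summed to 693 and 108, with Cd3e and Cd4 at or below the floor on both arrays. Neutrophil markers summed to 12183 and 8448, mostly from Csf3r (5412 and 2270), Mmp8 (2817 and 1259) and S100a8. S100a8 went up (3663 and 4675) against the falling sum, while S100a9, Elane and Mpo were at or below the floor. The part of these cells in the values of the zinc finger genes was not tested.

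With the arrays scaled as deposited, zinc finger genes were lower on the elicited array far more often than higher, whereas quantile normalization brought both counts close. Of the 154 members, 123 exceeded the floor on either or both arrays and 108 on both. Of the 123, 18 (14.6%) were lower by the 2-fold threshold, 1 (0.813%) was higher and 104 passed it in neither direction. Over all 11499 named genes above the floor, 11.8% were lower, 8.04% were higher and 19.8% passed the threshold either way. The share of lower members was thus near the background, while higher members were few beside it. The members' median log2 ratio of elicited over resident signal was -0.43, and that of all named genes was -0.03. Ratios fell below 0 in 98 members (79.7%), against 51.9% of all named genes. With a smaller threshold of 1.5-fold, 46 members were lower and 4 higher, against 23.1% and 18.4% of all named genes.

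**Figure D1:**
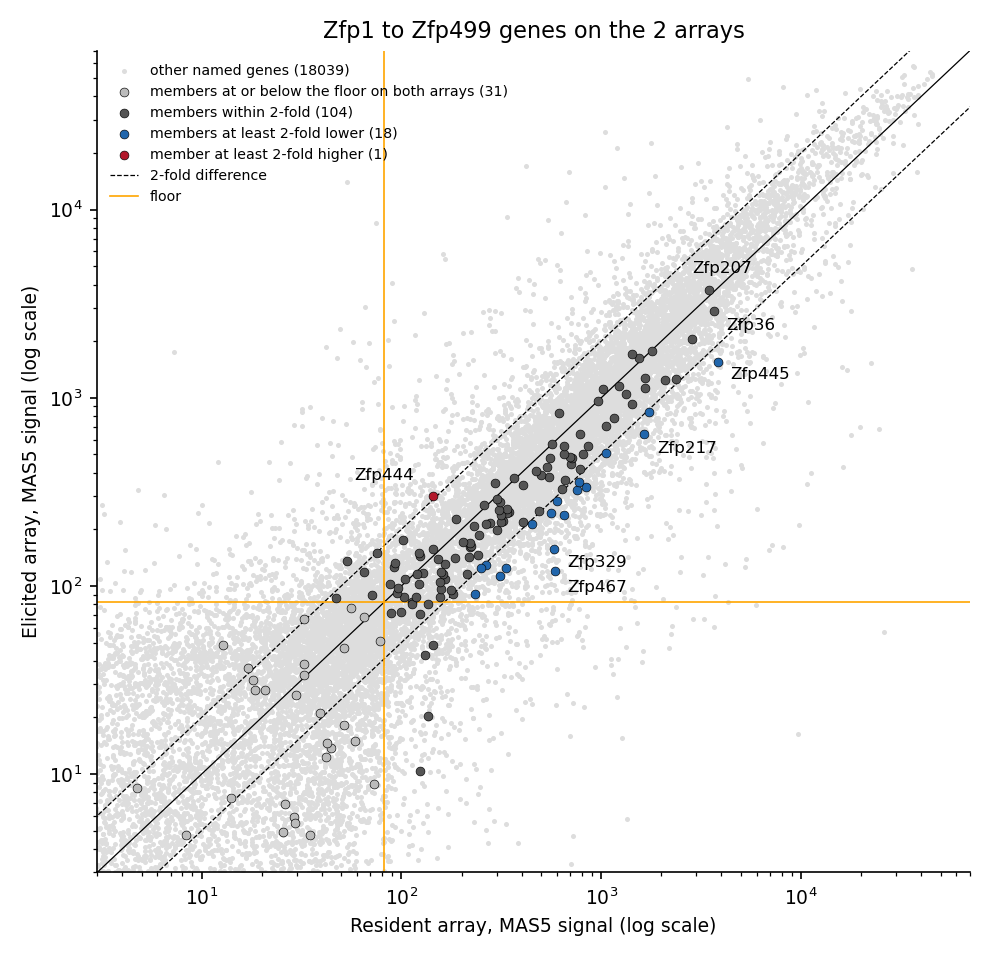
Signal of each gene on the resident array (horizontal, log scale) and on the elicited array (vertical, log scale). Grey dots are 18039 other named genes, coloured dots the members by class, dashed lines a 2-fold difference and orange lines the floor of 82.2; the 18 lower members sit under the diagonal and, among members above the floor on both arrays, Zfp444 alone lies beyond the upper dashed line.

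The difference was present at every brightness. The members were dimmer than most genes, with a median resident signal of 307 against 638 over all named genes above the floor, and on these arrays the ratio varied with signal. Genes above the floor on both arrays were therefore split by mean signal into 5 bands of equal size. In the dimmest band (signals of 82.5 to 271) the median log2 ratio was -0.39 over 49 members and -0.12 over all 1964 genes. In the next band it was -0.50 over 27 members and -0.18 over all genes. The middle band had medians of -0.57 over 17 members and -0.13 over all genes, and the band above it -0.38 over 11 members and 0.02 over all genes. In the brightest band the 4 members had a median of -0.41, where all genes had 0.32.

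The size of the difference depended on how the arrays were scaled. With the deposited scale, the members' median minus that of all named genes was -0.40 on the log2 scale. Scaling to equal medians gave a members' median of -0.14 beside 0.25 for all genes, and scaling on the spiked hybridisation controls -0.70 beside -0.31, so the distance changed little (-0.38 and -0.39). Quantile normalization gave -0.0096 beside 0.16, and removal of a loess trend -0.12 beside 0.07, and the distance shrank to -0.17 and -0.19. Members whose ratio lay below the median of all genes made up 78.0% with the deposited scale, 76.6% after equal medians, 66.1% after quantile normalization, 69.1% after loess and 77.9% on the controls.

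Counts past 2-fold moved with the scaling too. Equal medians left 9 lower and 3 higher members, beside 7.40% and 14.2% of all named genes. Quantile normalization left 6 lower and 5 higher, beside 8.00% and 11.1%. Loess left 8 lower and 2 higher, beside 9.28% and 9.37%. On the hybridisation controls 30 members were lower and 0 higher, beside 18.6% and 4.95%. Under each of the 5 scalings the share of higher members was below that of all named genes. The share of lower members was above that of all named genes with the deposited scale and on the hybridisation controls alone. After equal medians the share of lower members was close to that of all named genes, and after quantile normalization and loess it was below. The members lower under all 5 scalings were 6, namely Zfp467, Zfp329, Zfp280d, Zfp217, Zfp280c and Zfp445.

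Other zinc finger families showed the same lean, so it was not particular to this number range. Zfp genes numbered 500 or more had 25 lower and 4 higher of 141 above the floor, with a median log2 ratio of -0.41. Of 36 Zbtb genes, which pair C2H2 fingers with a BTB dimerization domain, 10 were lower and 0 higher (median -0.56). Of 15 Zkscan and Zscan genes, which carry a SCAN dimerization domain, 3 were lower and 0 higher (median -0.74). Among 16 Klf and Sp genes, activators and repressors that bind GC-rich promoters, 5 were lower and 0 higher (median -0.46). With the same deposited scale, 11.8% of all named genes were lower and 8.04% higher. In each of these 4 families the share lower was above that background and the share higher below it. The medians of these 4 families lay below 0 and below that of all named genes under each of the 5 scalings.

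**Figure D2:**
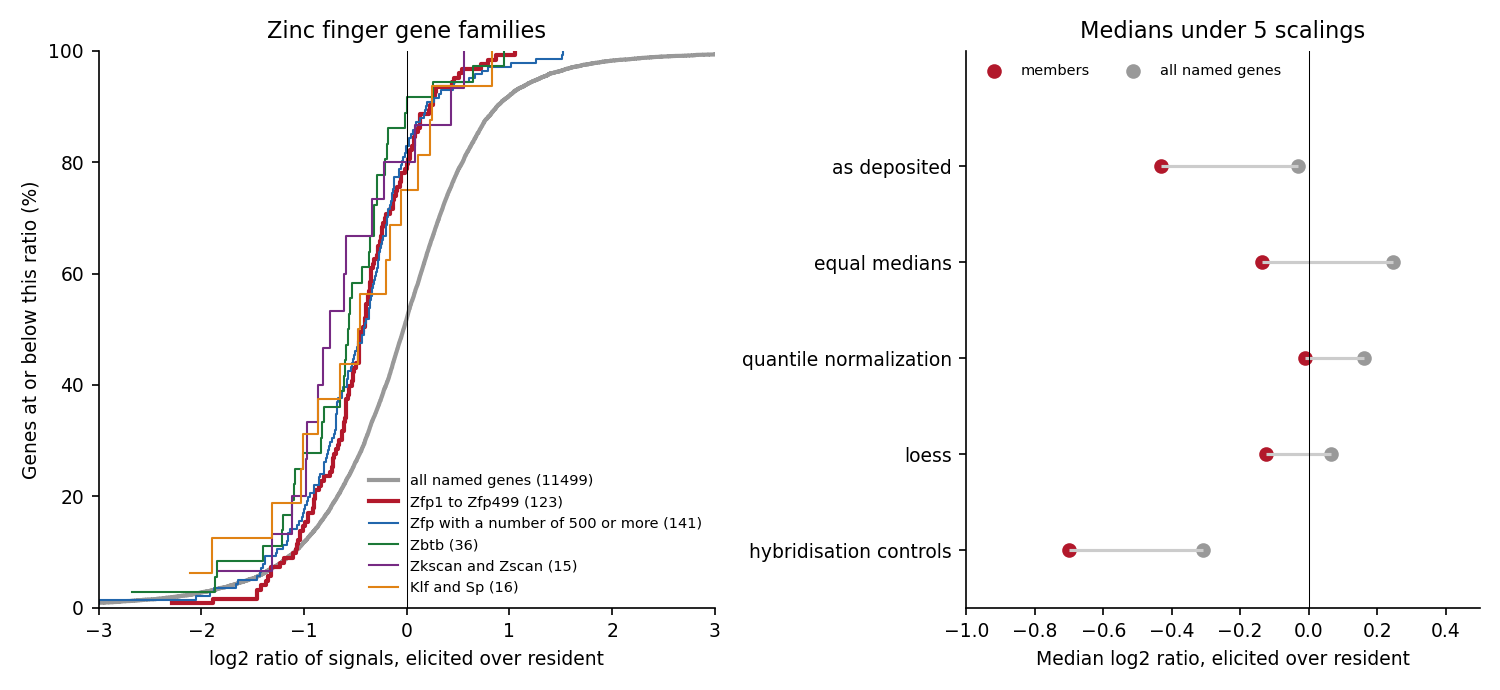
Left, share of genes (vertical, %) at or below each log2 ratio of elicited over resident signal (horizontal) for all named genes and for 5 zinc finger families above the floor; the families' curves run left of the grey curve of all genes over most of their range. Right, median log2 ratio of the members (red) and of all named genes (grey) under 5 scalings; the members' median is the lower of the pair in each.

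The lowest ratio belonged to Zfp467, known from marrow stromal cells, where it favours fat over bone formation. Its signals were 588 (resident) and 120 (elicited), 4.89-fold lower. Its other probe sets read 363 and 85.1, and 333 and 85.2, so all 3 showed a similar drop, although both of these elicited signals barely exceeded the floor. Zfp329, a C2H2 protein, was 3.70-fold lower (584 and 158), and a second probe set had signals of 397 and 155. Another Zfp329 probe set was at or below the floor on both arrays. Zfp182 had signals of 311 and 113 (2.75-fold lower) and Zfp1 234 and 90.6 (2.58-fold lower). The elicited signal of Zfp1 was under the 92.7 that the silent families reached on the resident array.

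Zfp445, a KRAB protein that protects imprinted methylation together with Zfp57, was bright on the resident array and lower on the elicited one. Its signals were 3853 and 1543 (2.50-fold lower), and its other probe sets had signals of 741 and 248 and of 560 and 178, so the 3 differed little in ratio. Zfp57 itself was at or below the floor on both arrays. Zfp217, an oncogene product that works with corepressor complexes, had signals of 1648 and 644 on its 1 probe set (2.56-fold lower). Zfp280c (841 and 336, 2.50-fold lower) and Zfp280d (651 and 237, 2.74-fold lower) are relatives of the fly insulator protein suppressor of hairy wing. The remaining measured relative, Zfp280b, had signals of 347 and 246 and stayed within 2-fold. A second probe set of Zfp280d had a log2 ratio of -0.14, so its size is uncertain.

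Zfp148, also called ZBP-89, binds GC-rich promoters in many tissues. Its 6 probe sets were all above the floor and all lower on the elicited array, with log2 ratios from -1.11 to -0.41. The probe set of highest signal read 1062 and 509 (2.09-fold lower). Zfp292, a large protein linked to neurodevelopmental disorders, had signals of 775 and 358 (2.16-fold lower), and its 4 probe sets above the floor ranged from -1.48 to -0.79 on the log2 scale. Zfp385a, an RNA-binding protein induced by p53, had 1 probe set, with signals of 332 and 124 (2.67-fold lower). The other lower members were Zfp266 (2.35-fold), Zfp142 (2.29-fold), Zfp62 (2.11-fold), Zfp267 (2.10-fold), Zfp40 (2.06-fold), Zfp52 (2.05-fold) and Zfp12 (2.01-fold). The spread between probe sets of one gene had an SD of 0.48 on the log2 scale over 4465 genes. Apart from Zfp467 and Zfp329, each lower member lay within that distance of the threshold.

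Zfp444 was the one higher member. It is known from endothelial cells, where it regulates the scavenger receptor gene Scarf1. Its signals were 144 and 299 (2.08-fold higher), and a second probe set read 116 and 181. Its remaining probe set went the other way, with 110 on the resident array and 60.5, below the floor, on the elicited array. The mean of its probe sets gave a log2 ratio of 0.28, and scaling on the hybridisation controls one of 0.75, both within 2-fold. The next highest were Zfp324 (75.4 and 150, at least 1.82-fold higher), Zfp54 (102 and 176, 1.73-fold) and Zfp385c (53.4 and 136, at least 1.65-fold), all dim and within the threshold. Zfp54 passed it after equal medians, quantile normalization and loess (log2 ratios of 1.10, 1.28 and 1.07). Zfp324 passed it after equal medians and quantile normalization, and Zfp385c (1.06) and Zfp420 (1.02) after quantile normalization. With a pseudocount of 1 in place of the floor, Zfp385c had a log2 ratio of 1.33. Zfp420 (93.0 and 133), a repressor of p53 activity, Zfp11 (91.6 and 126) and Zfp46 (616 and 834) followed, and a second Zfp420 probe set had a log2 ratio of -0.16.

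**Figure D3:**
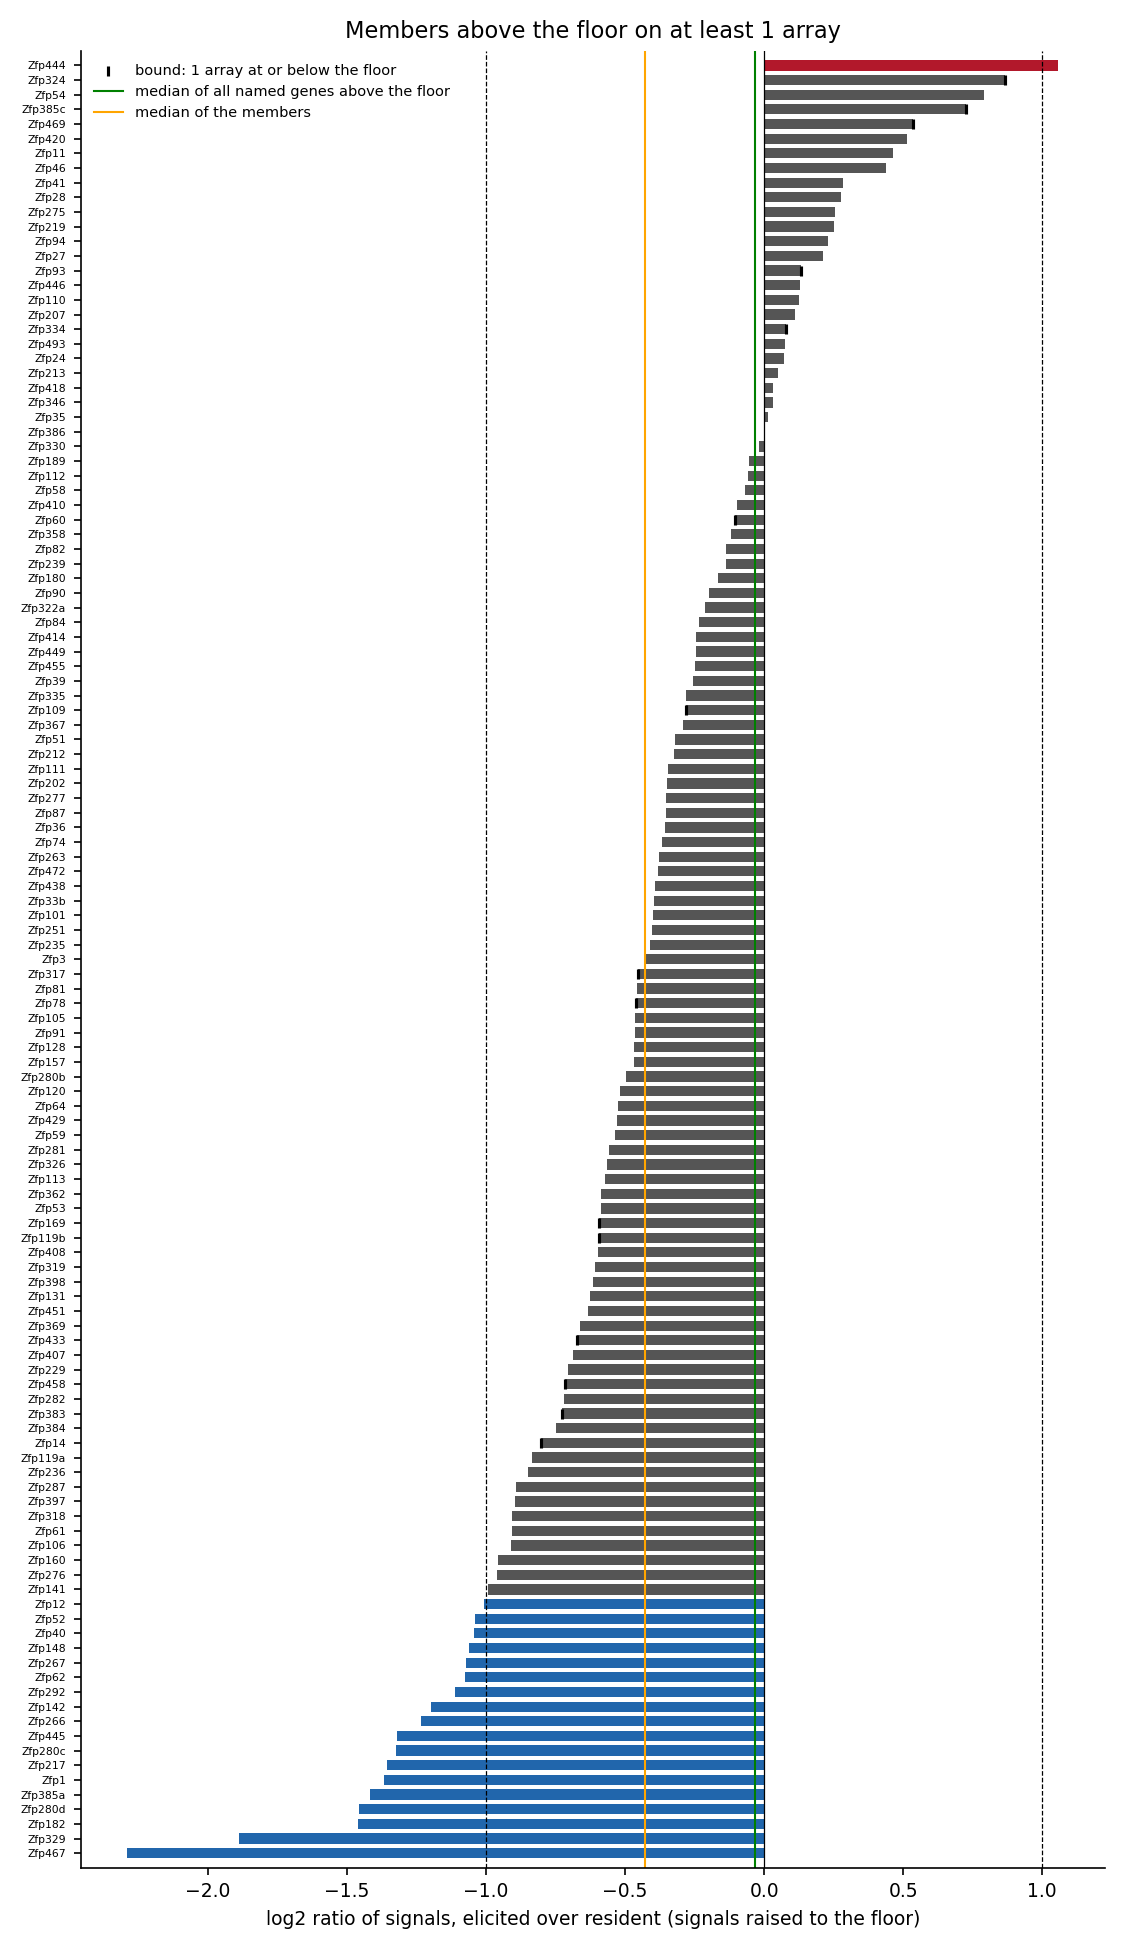
Log2 ratio of elicited over resident signal for the 123 members above the floor on at least 1 array, sorted; blue bars are at least 2-fold lower, the red bar at least 2-fold higher, ticks mark bounds and dashed lines a 2-fold difference. The members' median (orange, -0.43) lies left of the median of all named genes (green, -0.03).

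Promoters of the members at both ends of the range, and of the tristetraprolin gene, are shown so that their letters can be set against the values. Each is the 200 bases before the start in RefSeq's GRCm38.p6 table. Capitals mark matches to a searched motif on either strand. Zfp467 (chr6:48445091-48445290, minus strand) and Zfp329 (chr7:12818861-12819060, minus strand) had the lowest ratios, Zfp444 (chr7:6172313-6172512, plus strand) the highest, and Zfp36 (chr7:28379229-28379428, minus strand) lay within 2-fold.
Zfp467: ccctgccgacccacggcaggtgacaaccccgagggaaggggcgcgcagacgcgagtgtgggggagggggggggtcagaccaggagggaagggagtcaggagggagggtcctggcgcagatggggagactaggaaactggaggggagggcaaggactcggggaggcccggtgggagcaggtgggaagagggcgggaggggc
Zfp329: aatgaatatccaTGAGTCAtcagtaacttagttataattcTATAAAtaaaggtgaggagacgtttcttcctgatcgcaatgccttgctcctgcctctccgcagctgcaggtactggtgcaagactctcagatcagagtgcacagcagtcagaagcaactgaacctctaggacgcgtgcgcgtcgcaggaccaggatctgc
Zfp444: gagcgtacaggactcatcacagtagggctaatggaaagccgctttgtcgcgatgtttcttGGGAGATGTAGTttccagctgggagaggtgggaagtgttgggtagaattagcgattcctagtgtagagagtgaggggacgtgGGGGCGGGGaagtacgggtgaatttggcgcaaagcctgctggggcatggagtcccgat
Zfp36: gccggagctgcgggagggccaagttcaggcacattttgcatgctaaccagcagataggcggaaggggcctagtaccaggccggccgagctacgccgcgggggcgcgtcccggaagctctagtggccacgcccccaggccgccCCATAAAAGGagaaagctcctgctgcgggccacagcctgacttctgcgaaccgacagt
In these letters the GC-rich stretch of Zfp467 held none of the searched motifs. Zfp329 held an AP-1 motif and a TATA box. Zfp36 held a CArG box, the element read by serum response factor, and was the 1 member of 123 with it, against 1.54% of all promoters. Zfp444 held a GC box and a longer pattern that recurred in other members.

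Probe sets of one gene mostly shared their direction. In 45 members 2 or more probe sets exceeded the floor, and 32 of these had every such probe set lower on the elicited array, 0 had every one higher and 13 were mixed. Of the 18 lower members, 13 belonged to these 45, and in 11 of the 13 all such probe sets were lower. The exceptions were Zfp266, where 1 of 4 probe sets had signals of 98.8 and 114, and Zfp142, whose 3 ranged from -1.20 to 0.09 in log2 ratio. The widest disagreement was in Zfp207, which encodes BuGZ, a spindle protein that loads the checkpoint protein BUB3. Its probe set of highest signal read 3480 and 3759, near equality. Its other 5 probe sets were lower on the elicited array, among them 540 and 91.0 (5.94-fold lower) and 813 and 244 (3.34-fold lower). Probe sets of this design can read different ends or splice forms of a gene, and which of them reflects the whole transcript cannot be told from these arrays.

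**Figure D4:**
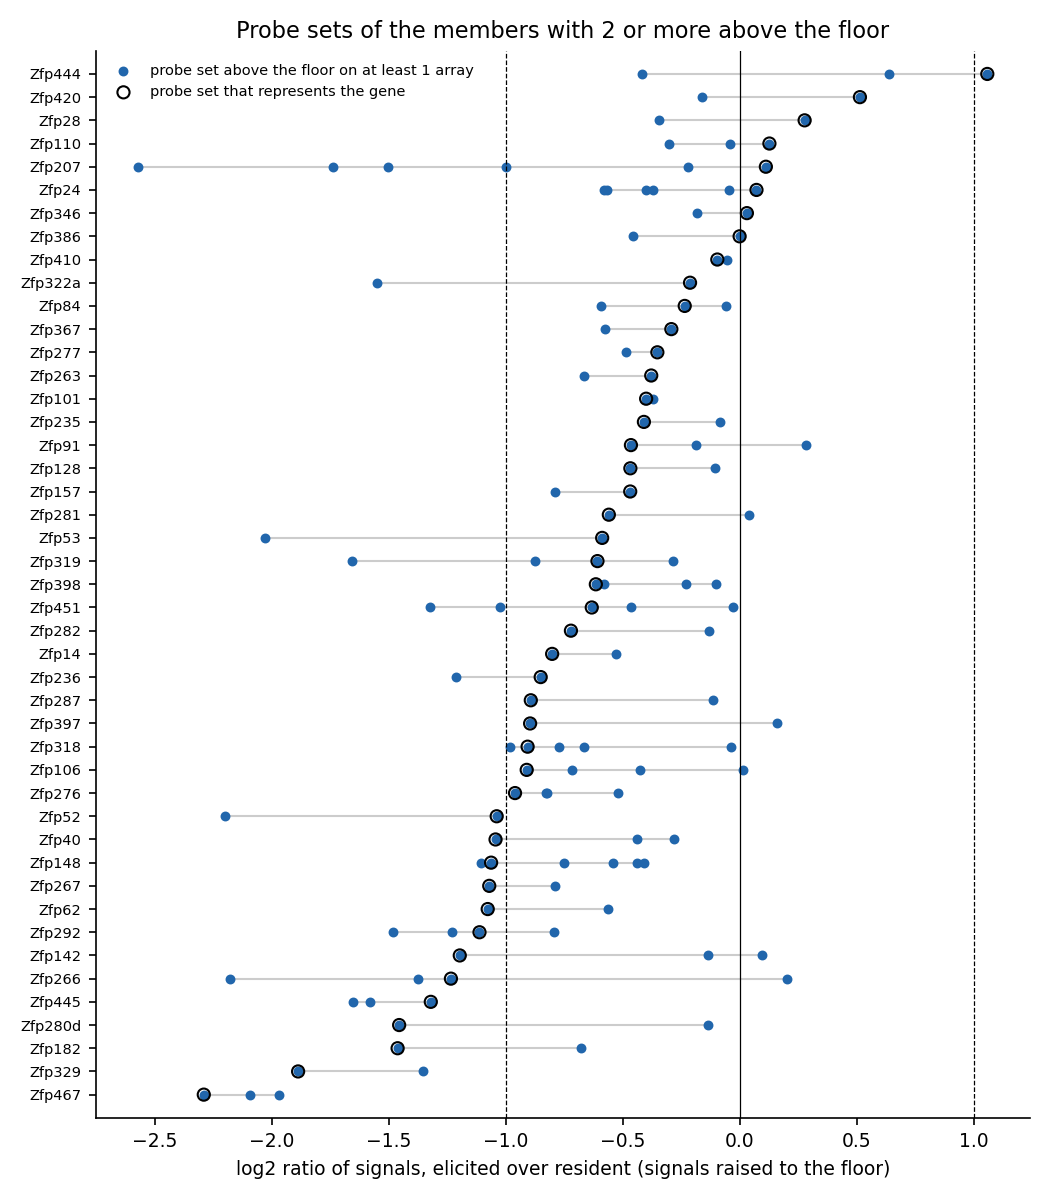
Log2 ratio of elicited over resident signal (horizontal) for each probe set above the floor on at least 1 array, in the 45 members that have 2 or more; open circles mark the probe set that represents the gene and dashed lines a 2-fold difference. Most points lie left of 0, and Zfp207 spans from -2.57 to 0.11.

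Members with a role in immune cells were mostly within 2-fold. Of 11 listed members, 8 were above the floor, 1 of them lower (Zfp148, 12.5%, beside 11.8% of all named genes) and 0 higher, with a median of -0.41 beside -0.03 for all named genes. Tristetraprolin messenger Zfp36 was read by 1 probe set, at 3681 and 2878 (1.28-fold lower). Zfp91, a ubiquitin ligase of the noncanonical NF-kappaB pathway, had signals of 2845 and 2061 on its brightest probe set, and 703 and 857 on another, so its direction was not settled. Zfp281, a binder of GC-rich promoters known from stem cells, likewise pointed both ways (1663 and 1129; 766 and 788). Zfp335, needed for naive T cells, had signals of 307 and 253. Zfp35 stood at 566 and 572, and Zfp110, an effector of the neurotrophin receptor p75, at 1019 and 1112 on an _x_at probe set. The other Zfp110 probe sets had signals of 1035 and 1005 and of 572 and 464. Zfp341, which drives STAT3 transcription, was at or below the floor on both arrays. Zfp318 controls the choice between IgM and IgD messengers in B cells. Its signals were 788 and 420 (1.87-fold lower), and all 5 of its probe sets had log2 ratios below 0, from -0.98 to -0.04. Of the 12 B cell markers measured, 10 were at least 2-fold lower. The part of B cells in the value of Zfp318 was not tested.

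Genes around tristetraprolin differed in both directions. Its relatives Zfp36l1 and Zfp36l2, which the symbol rule leaves out, had signals of 5530 and 1547 (3.58-fold lower) and of 11191 and 8794 (1.27-fold lower). Of 19 measured genes of messenger deadenylation and of the kinases around tristetraprolin, 5 were lower and 1 higher, with a median of -0.36. Among all named genes 11.8% were lower and 8.04% higher. The kinase gene Mapkapk2, whose product phosphorylates and restrains tristetraprolin, was 2.08-fold lower (4009 and 1926). The deadenylase recruiter Btg2 was 3.13-fold lower and the deadenylase subunit gene Pan2 2.69-fold lower, and Cnot6l and Cnot2 were 2.30-fold and 2.17-fold lower. Dusp1, a phosphatase that turns off the p38 kinase, was 3.23-fold higher (885 and 2857). Of 9 messengers above the floor that are described as tristetraprolin targets, 5 were lower and 1 was higher (median -1.34), beside the same 11.8% and 8.04%. The chemokine gene Cxcl2 was 11.5-fold lower (5040 and 439), Il1b 9.48-fold lower (1358 and 143) and Ier3 4.61-fold lower (3485 and 756). Il6 and Ptgs2 were at least 2.53-fold and at least 2.75-fold lower, whereas Ccl2 was 4.57-fold higher (354 and 1615). Tnf, the classical target, had signals of 449.1 and 449.3.

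Among members listed as acting on RNA, 1 of 9 above the floor (11.1%) was lower, namely Zfp385a, near the 11.8% of all named genes. The median of this list was -0.36. Zfp106, which binds repeat RNA and maintains motor neurons, had signals of 2372 and 1262 (1.88-fold lower), but 1 of its 4 probe sets had a log2 ratio of 0.01. Zfp326, a subunit of the DBIRD complex that links transcription elongation to splicing, had signals of 1157 and 781 (1.48-fold lower). Zfp346, a binder of double-stranded RNA, stood at 368 and 375 (a second probe set had a log2 ratio of -0.18), and the nucleolar protein gene Zfp330 at 1799 and 1776. Zfp472 (652 and 501) and Zfp239 (128 and 117) also stayed within 2-fold. Zfp472 is also called Krim1, and its place on this list was not checked, so the share and median depend on it.

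General regulators of transcription, chromatin and mitosis were read on both arrays throughout. All 22 measured were above the floor on both arrays, 5 were lower (Zfp148, Zfp217, Zfp280c, Zfp280d and Zfp292), 0 were higher and the median was -0.57. That is 22.7% lower, beside 11.8% lower and 8.04% higher of all named genes, and Zfp148 and Zfp292 were within 2-fold after equal medians, quantile normalization and loess. Zfp384, a nuclear matrix protein that binds matrix metalloproteinase promoters, had signals of 2084 and 1240 (1.68-fold lower). Zfp451, a SUMO ligase, had signals of 862 and 556, with all 5 probe sets lower by log2 ratios of -1.32 to -0.03. Zfp276 (488 and 251, 1.95-fold lower) came close to the threshold, with all 4 probe sets lower. Zfp131 (1425 and 923), Zfp362 (1062 and 707), Zfp64 (549 and 381) and Zfp263 (1649 and 1268) differed by less. Zfp410, the activator of the nucleosome remodeller gene Chd4, stood at 1233 and 1153, and a second probe set was near level (385 and 371). The mean over all its probe sets gave a log2 ratio of -1.71. That value came from a probe set below the floor on both arrays (60.5 and 1.90). Chd4 itself was 3.36-fold lower (1683 and 501). Zfp90 had signals of 469 and 409 and Zfp367 of 784 and 640, with a log2 ratio of -0.57 on a second Zfp367 probe set. Zfp24 was nearly level on its brightest probe set (1548 and 1626), while its other 5 were lower, down to a log2 ratio of -0.58. Zfp219, a partner of SOX9 in cartilage, had signals of 295 and 351.

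Members known from development and lineage choice were often not detected, while 123 of all 154 members exceeded the floor on at least 1 array. Of 18 measured, 10 were at or below the floor on both arrays, among them the pluripotency marker Zfp42, the imprinting factor Zfp57, Zfp423 of fat precursors and Zfp462. Of the 8 above it, Zfp467 was lower (12.5%, near the background of 11.8%), 0 were higher and the median was -0.07. Zfp469, whose loss makes the cornea brittle, exceeded the floor on the elicited array alone (65.0 and 119, at least 1.45-fold higher), the array on which 9 of 11 mesothelial and fibroblast markers above the floor were also higher. Zfp275 had signals of 1432 and 1709, Zfp157 337 and 243 and Zfp41 122 and 149. Zfp322a had signals of 552 and 476 on its brightest probe set but 394 and 134 on another (2.93-fold lower), so its size is uncertain.

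Above the floor on at least 1 array were 123 of the 154 members and 11499 of all 18193 named genes. The other 31 members were at or below it on both arrays as read by their representative probe set. In 2 of them, Zfp316 (112 and 9.62) and Zfp37 (83.7 and 1.56), another probe set exceeded it on the resident array. They include the KRAB genes Zfp354a, Zfp354b and Zfp354c, the noncoding opposite-strand gene Zfp85os, the transcribed pseudogene Zfp389, and Zfp185, which is a LIM protein despite its name. A further 10 exceeded the floor on the resident array alone, with signals from 88.3 for Zfp60 to 143 for Zfp14. In the other direction 5 exceeded it on the elicited array alone (Zfp334, Zfp93, Zfp469, Zfp385c and Zfp324). Background was brighter on the resident array, where the silent families reached 92.7 at their 95th percentile, than on the elicited array, where they reached 67.9. With the floor at 92.7, the counts of lower and higher members stayed at 18 and 1, beside 11.7% and 8.01% of all named genes.

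The corepressor side of the KRAB pathway differed in both directions. Of 24 measured partners above the floor, 5 were lower and 3 higher, beside 11.8% lower and 8.04% higher of all named genes. The partners' median was -0.37, and 2 others were at or below the floor. The central corepressor gene Trim28 was almost level (2764 and 2611), as was the heterochromatin protein gene Cbx5 (402 and 407), while the histone methyltransferase gene Setdb1 had signals of 613 and 770. Atf7ip, which stabilizes SETDB1, was 2.41-fold lower (1873 and 777), and Tasor of the silencing complex HUSH was 3.42-fold lower (811 and 237). The remodeller gene Chd3 (2.16-fold) and the DNA methyltransferase gene Dnmt3b (at least 2.99-fold) were lower as well, besides Chd4. Dnmt3a was 11.4-fold higher (827 and 9418), the maintenance methyltransferase gene Dnmt1 2.27-fold higher (1111 and 2523), and Uhrf1, which guides DNMT1 to replicating DNA, at least 3.40-fold higher (55.1 and 279).

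With the arrays scaled as deposited, members beside another Zfp gene were lower less often than members without one. In the gene order of the RefSeq table for GRCm38.p6, 71 of the 152 protein-coding members had another Zfp gene as a direct protein-coding neighbour, and 81 did not. Of the 59 neighbouring members above the floor, 4 were lower and 1 higher (6.78% and 1.69%), with a median of -0.35. Of the 64 members above the floor without such a neighbour, 14 were lower and 0 higher (21.9% lower), with a median of -0.52. Over all named genes 11.8% were lower and 8.04% higher. The difference between these 2 groups of members was not tested, and the split was not repeated under the other scalings. The lone members were also brighter, with a median resident signal of 556 against 214, and the part of brightness in this gap was not tested. Within runs of neighbours the ratios varied. In the run of Zfp54, Zfp51, Zfp53 and Zfp52 they went from -1.04 for Zfp52 to 0.79 for Zfp54. The run Zfp180, Zfp112, Zfp235, Zfp111, Zfp109, Zfp93, Zfp61 and Zfp94 held 8 members above the floor, of which 6 were below 0 and 0 were lower by 2-fold. Neighbouring Zfp genes often arose by duplication and resemble each other, so a probe set of one can pick up another, and their values are uncertain in that respect. Only 2 members were read by a probe set of the type marked as open to cross-hybridisation (_x_at) and 9, Zfp467 and Zfp142 among them, by one shared between transcripts (_s_at). Without such probe sets, 17 of 120 members were lower and 1 was higher, beside 12.2% and 7.77% of all named genes.

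The longer pattern in the promoter of Zfp444 has 12 bases, ACTACA and TCCC with any 2 bases between them. It resembles the binding site described for ZNF143, the human counterpart of Zfp143. This pattern was frequent in the members' promoters. Among the 123 members with a promoter window of 300 bases (250 before to 50 after the start), 27 (22.0%) held it on either strand, against 488 of 17492 protein-coding genes (2.79%). It was chosen after this promoter had been read and the ratios were known, so these shares are a description. The share was 39.7% among 58 members next to another Zfp gene and 6.15% among 65 without such a neighbour. Zfp genes numbered 500 or more held it in 10.9% of 184 windows, Zkscan and Zscan genes in 10.0% of 20, and Zbtb and Klf or Sp genes in 0 of 36 and 0 of 20. The shared ancestry of neighbouring genes means that these promoters are not independent of each other. 

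The other motifs of the 12 searched, each on both strands, were less distinct. The ETS core CCGGAAGT was in 13.8% of the members' windows against 5.29% of all, and the NRF1 motif in 4.88% against 1.32%. The CCAAT box was in 43.9% against 39.0%, the GC box GGGGCGGGG in 16.3% against 15.5%, and the cAMP response element TGACGTCA in 2.44% against 2.34%. Less frequent than in all promoters were the TATA box TATAAA (9.76% against 13.3%), the E-box CACGTG (4.88% against 7.90%) and the AP-1 motif TGAGTCA (2.44% against 4.58%). The NF-kappaB motif was in 0 of 123 windows against 0.137% of all, and the BANP motif in 0.813% against 0.715%. The median ratio of observed over expected CpG was 0.661 in the members' windows and 0.576 in all. A match to letters does not show that a factor binds there.

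To show how closely the pattern recurs, 8 of these sites are given with 14 bases on each side, each read in the direction of the pattern, which is in capitals. All 8 members were above the floor on both arrays. They are ordered from the lowest ratio (Zfp1) to the highest (Zfp444).
Zfp1: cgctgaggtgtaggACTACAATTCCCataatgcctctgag
Zfp429: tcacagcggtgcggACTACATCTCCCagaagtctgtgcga
Zfp74: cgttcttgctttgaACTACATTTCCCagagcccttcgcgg
Zfp111: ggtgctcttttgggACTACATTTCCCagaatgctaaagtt
Zfp58: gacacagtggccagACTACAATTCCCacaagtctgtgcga
Zfp28: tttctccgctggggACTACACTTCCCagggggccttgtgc
Zfp420: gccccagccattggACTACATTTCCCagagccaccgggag
Zfp444: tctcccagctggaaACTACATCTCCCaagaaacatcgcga
The sites lie at chr8:111643403-111643442, minus strand for Zfp1, chr13:67399813-67399852, plus strand for Zfp429, chr7:29954091-29954130, plus strand for Zfp74 and chr7:24208188-24208227, plus strand for Zfp111. Those of Zfp58 (chr13:67500528-67500567, plus strand), Zfp28 (chr7:6383159-6383198, plus strand), Zfp420 (chr7:29859906-29859945, plus strand) and Zfp444 (chr7:6172359-6172398, minus strand) follow.

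Of the 23 members with the pattern that were above the floor, 1 was lower (Zfp1) and 1 higher (Zfp444), with a median log2 ratio of -0.24. Over all named genes above the floor, 11.8% were lower and 8.04% higher. In 8 of the 23 an array was at the floor, so their ratios are bounds and the full difference may be larger, as in Zfp458 (135 and 20.4). Among all named genes above the floor on both arrays, 11.1% were lower and 7.56% higher. Of the 15 members with the pattern above it on both, 1 was lower and 1 higher, with a median of -0.17. Of 73 such members with a window but without the pattern, 15 were lower and 0 higher, with a median of -0.52. These values describe a pattern picked from the promoter of the highest member and support nothing about it. Members with the pattern were dimmer (median resident signal of 188 against 549 among members above the floor on both arrays), and most lay in runs of Zfp genes, and the part of each in the difference was not tested. Of the 31 sites in 27 members, 29 lay wholly before the start, 22 ran against the gene and 9 along it. Zfp317, Zfp112 and Zfp108 held more than 1. Zfp143 itself was not analysed here.

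**Figure D5:**
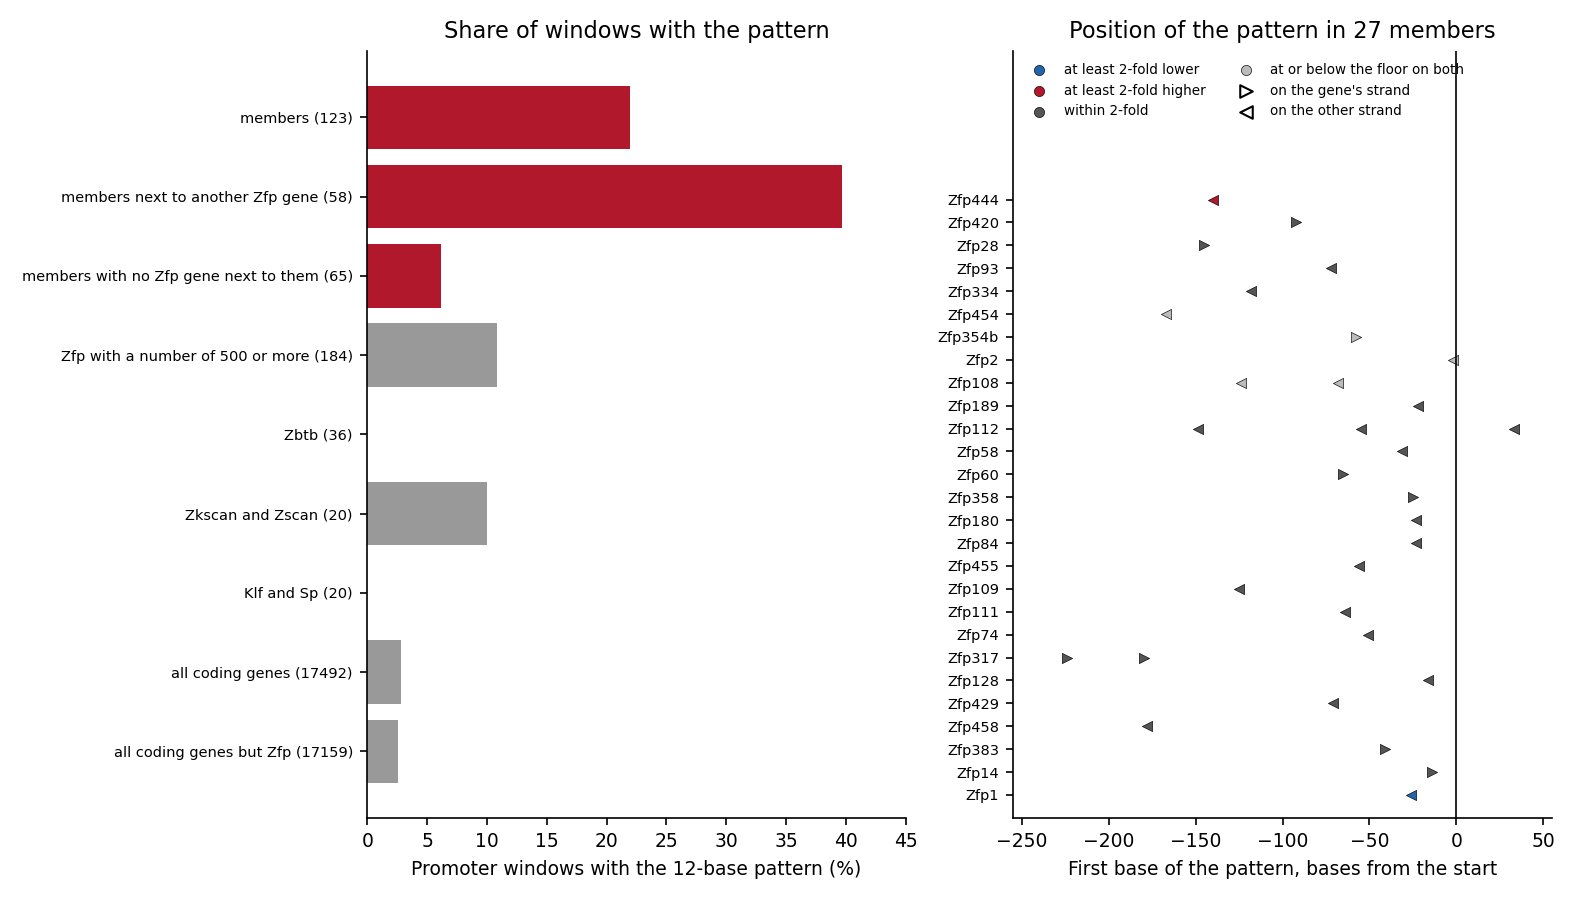
Left, share of promoter windows (horizontal, %) that hold the 12-base pattern in groups of genes, with the number of windows in brackets; it is 39.7% for members next to another Zfp gene and 2.79% for all coding genes. Right, distance in bases from the start to the first base of each site in 27 members, sorted by ratio from Zfp1 to Zfp444, with the arrow giving its strand and the colour the class of the member.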

How the data were processed

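RNA was measured on 2 Affymetrix 3' expression arrays, 1 per group. The authors deposited linear signal intensities for 45101 probe sets per array, made with MAS5 per the submitters' processing notes. MAS5's version and detection calls were not given in the sources used here. A mean without the lowest and highest 2% was 500.0 on both arrays, so the intensities share a scale.

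Of 34945 probe sets naming 1 gene, 34741 took their current symbol by gene ID from RefSeq GRCm38.p6. Of 177 protein-coding genes in the symbol range, 152 had a probe set of their own. The floor used 126 probe sets of olfactory, vomeronasal and taste receptors and keratin-associated proteins. Log2 ratios are elicited over resident.

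Members and gene lists were chosen with earlier results of these data known. Genes named by rule were the 8 highest and 8 lowest ratios above the floor on both arrays, the 10 of highest mean signal, role list members above the floor and members whose probe sets differed by over 2 on the log2 scale. Others were named after their values were seen. Motifs were searched in the first listed RefSeq promoter window of each gene (26 of 123 members have several). Protein sequences were not used here, so fingers and KRAB boxes were not counted.

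Calculations were tested on simulated data and used Python 3.11.15, numpy 2.4.6, pandas 2.3.3, statsmodels 0.14.6 and matplotlib 3.10.9. Alternatives changed the scaling (equal medians, quantile, loess with span 0.4, and 9 hybridisation controls, 1.24-fold higher on the elicited array), floor, probe sets, filter and members.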

Additional observations from a re-analysis of the deposited data

How the results depend on the processing

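The counts of 18 lower and 1 higher members and their median of -0.43 moved with the scaling. Equal medians gave 9, 3 and -0.14, quantile 6, 5 and -0.0096, loess 8, 2 and -0.12, and the hybridisation controls 30, 0 and -0.70. With the floor added as a pseudocount there were 11 lower and 0 higher members and a median of -0.32. Those 11 were 8.94% of the members, slightly below the 9.44% of all named genes that were lower, while 7.01% were higher. The count of higher members was 0 with the floor at the 99th percentile and with the mean over probe sets, and 2 with a pseudocount of 1. Of all named genes, 7.53%, 6.63% and 10.3% were higher under these 3 settings. Of the 11 settings tried for members past 2-fold, each kept Zfp467, Zfp329, Zfp217, Zfp280c and Zfp445 lower. Of the 19 members past 2-fold, 10 passed it after equal medians, 7 after quantile, 9 after loess and 18 on the controls. Zfp207 turned to a log2 ratio of -1.54 with the mean over its probe sets. Among 502 values of 51 named members, 26 lost and 14 gained a 2-fold difference under an alternative, and 1, that of Zfp207, reversed. A further 9 stayed within 2-fold but moved by more than the probe-set SD of 0.48. The other 452 kept their class. Members past 2-fold could shift by more than that SD and still keep it, as Zfp467 did (-2.29, and -1.75 with the 99th percentile floor). Signal limits the rest: only 86 members exceeded the 99th percentile floor of 174. The number of arrays limits all values.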

Other observations

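A further 9 probe sets name a member together with another gene and were left out of the counts. Of the 5 above the floor on at least 1 array, 4 were lower on the elicited array and 0 by 2-fold, with a median log2 ratio of -0.56. The one shared by Zfp97 and Zfp960 had signals of 894 and 467. Those shared by Zfp64 and a predicted gene had log2 ratios of -0.70 and -0.44 where they were above the floor, and the probe set of Zfp64 alone had -0.53.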
